A study of Mus musculus with 12 samples.

Results

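The genes described here are 6 whose products belong to the primary (azurophil) granule of developing neutrophils and monocytes or mark the cells that make it: Mpo, Elane, Prtn3, Ctsg, Ms4a3 and Prss57. They were taken by symbol from the 55376 genes of the count table, with earlier results of these data known. All 6 passed the filter on low counts that 11994 genes passed. The 12 RNA-seq libraries came from cultured mouse bone marrow cells sorted as c-Kit+/Sca-1+/Lin-, a progenitor fraction, and kept in RPMI with SCF (100 ng/ml), IL-3 (20 ng/ml) and IL-6 (20 ng/ml). There were 4 groups of 3 libraries: the empty retroviral vector MSCV with a control shRNA, NUP98-NSD1 with a control shRNA, and NUP98-NSD1 with shNizp1#1 or with shNizp1#2. NUP98-NSD1, an oncogene of acute myeloid leukaemia, joins part of a nuclear pore protein to a histone methyltransferase, and Nizp1, listed as Zkscan17, is a zinc finger protein that binds NSD1. The fusion was carried by the retrovirus and not by the cells' own locus, the shRNAs by the lentiviral vector pLKO.1, and no animal is named for any library. Each group has a replicate number 1, 2 and 3. Libraries with the same number varied together, as the description of the processing sets out, and the genes are therefore given by replicate number as well as by group. The numbers are names without an order, and whether each marks 1 experiment is not stated.

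Primary granules are filled at the promyelocyte stage, when the myeloperoxidase and serine protease genes are read for a short time and then shut off. Mpo encodes myeloperoxidase, which makes hypochlorous acid. Elane, Prtn3 and Ctsg encode the serine proteases neutrophil elastase, proteinase 3 and cathepsin G, and Prss57 encodes the related protease NSP4. Ms4a3 encodes a membrane protein of granulocyte-monocyte progenitors. In the bone marrow these genes mark the granulocyte-monocyte branch, with transcription factors of the PU.1, C/EBP, MYB and RUNX families known to act on several of them. Cathepsin G is also stored by mast cells.

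The genes lie on 4 chromosomes of the mm10 build. Elane (chr10:79886247-79888215, forward strand) and Prtn3 (chr10:79879614-79883174, forward strand) are neighbours 3073 bases apart. Prss57 (chr10:79781474-79790961, reverse strand) lies 88653 bases from Prtn3 on the same chromosome. Mpo is at chr11:87793581-87804413 on the forward strand, Ctsg at chr14:56099881-56102574 on the reverse strand and Ms4a3 at chr19:11629496-11640834 on the reverse strand. Bases that lie before both the first exon of the count table's gene models and the RefSeq start are shown for 5 of 6 genes. They are given because Ctsg was higher in the libraries of replicate number 3 and the other genes were lower there. Prss57, which was lower too, had no promoter entry and is left out. For Ms4a3 the RefSeq start lies upstream of the count table's first exon, so that the bases shown end a short way before that exon. They come from the RefSeq promoter windows of the GRCm38.p6 build, which run from 250 bases before to 50 bases after the RefSeq start and had an entry for Mpo, Elane, Prtn3, Ctsg and Ms4a3. Each is written 5′ to 3′ on the gene's strand, and capitals mark matches to the motifs described after them.
Mpo: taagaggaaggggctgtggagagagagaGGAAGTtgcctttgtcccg
Elane: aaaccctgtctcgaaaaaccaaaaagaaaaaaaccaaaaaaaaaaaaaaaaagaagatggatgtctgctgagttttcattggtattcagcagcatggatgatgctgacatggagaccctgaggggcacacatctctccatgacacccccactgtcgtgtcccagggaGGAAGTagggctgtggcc
Prtn3: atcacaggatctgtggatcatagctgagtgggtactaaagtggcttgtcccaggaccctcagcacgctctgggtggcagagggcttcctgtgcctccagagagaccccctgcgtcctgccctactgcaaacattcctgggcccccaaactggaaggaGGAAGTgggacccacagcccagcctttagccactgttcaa
Ctsg: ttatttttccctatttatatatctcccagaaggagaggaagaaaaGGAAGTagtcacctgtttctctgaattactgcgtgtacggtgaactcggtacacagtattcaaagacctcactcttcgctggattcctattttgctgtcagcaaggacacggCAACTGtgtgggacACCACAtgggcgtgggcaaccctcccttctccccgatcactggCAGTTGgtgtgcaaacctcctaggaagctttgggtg
Ms4a3: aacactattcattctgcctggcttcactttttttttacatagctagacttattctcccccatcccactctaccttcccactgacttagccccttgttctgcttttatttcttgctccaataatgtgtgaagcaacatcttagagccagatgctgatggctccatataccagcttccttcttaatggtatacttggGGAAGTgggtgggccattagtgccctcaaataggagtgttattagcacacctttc

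These bases are chr11:87793534-87793580 for Mpo and chr10:79886062-79886246 for Elane, chr10:79879417-79879613 for Prtn3, chr14:56102575-56102824 for Ctsg and chr19:11640852-11641101 for Ms4a3. The letters GGAAGT, a core bound by PU.1 and other ETS factors, were searched on both strands of the whole windows and stood in 5 of 5. They stand in 23.8% of all 32851 windows. The first base of the match on the gene's strand was at position -222 from the RefSeq start in Mpo, -83 in Elane, -93 in Prtn3, -205 in Ctsg and -55 in Ms4a3. Ms4a3 held a second match on the other strand, at position 17 after the start and so beyond the bases shown. The letters CAACNG, bound by MYB, stood in 3 of 5 windows (Elane, Prtn3 and Ctsg) against 35% of all windows. Ctsg held this motif at position -93 and, on the other strand, at -36. In Elane it lay at -51 and in Prtn3 at -56, inside or across the edge of the first exon of the count table and so beyond the bases shown. TGTGGT, bound by RUNX factors, stood in the Ctsg window alone among the 5, at -79 on the other strand, against 16.8% of all windows. TTGCNNAA, a form of the C/EBP site, stood in the Ms4a3 window alone among the 5, at position 41 after the start, against 10.8% of all windows. These motifs overlapped one another nowhere in the bases shown. They were chosen after the sequences had been looked at, and a match is a description of the letters.

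The depth of the libraries limits what can be said of the less abundant genes. Totals ran from 3586538 to 6842589 counts, so that 3 counts, taken as the floor, correspond to 0.417 to 0.837 CPM. CPM are counts scaled to the library's counts over the tested genes times its TMM factor. Zkscan17, the target of the shRNAs, stood at 64.2, 57.0 and 68.2 CPM with the empty vector and at 62.6, 49.4 and 61.8 CPM with the fusion and the control shRNA. It stood at 35.0, 26.2 and 30.4 CPM with shNizp1#1 and at 29.0, 17.6 and 27.0 CPM with shNizp1#2, with no overlap with the control libraries. Markers of the labelled cell type and of other lineages were looked at. Kit, the receptor used in the sort, stood between 1930 and 3100 CPM in every library. Ly6a, which encodes Sca-1, stood between 23.8 and 277 CPM. Kit is also on the mast cell list, so that its level does not tell the sorted fraction from mast cells. The 14 mast cell genes summed to 44800 to 70800 CPM in every library, led by the carboxypeptidase gene Cpa3 at 19300 to 30600 CPM, so that mast cell RNA was abundant in all groups. The erythroid list (9 genes) summed to at most 14.0 CPM, the B cell list (8 genes) to at most 10.4 CPM and the T and NK cell list (8 genes) to at most 6.69 CPM. Sums were higher for the megakaryocyte list (8 genes), at 1540 to 2450 CPM. The secondary and tertiary granule list (18 genes) summed to 163 to 2040 CPM and the monocyte and macrophage list (14 genes) to 279 to 1310 CPM. These markers therefore did not establish the labelled cell type.

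Mpo ran from no count to 469 CPM over the 12 libraries. In replicate number 1 it stood at 53.5 CPM (empty vector), 41.4 CPM (NUP98-NSD1 and control shRNA), 48.3 CPM (shNizp1#1) and 175 CPM (shNizp1#2). In replicate number 2 the same groups gave 333, 469, 167 and 130 CPM. Replicate number 3 gave 1.95, 3.34, 0 and 4.70 CPM, from 9, 17, 0 and 32 counts. All 4 libraries of replicate number 3 thus lay under all 8 others, and the library at 0 counts allows up to 0.417 CPM. Gm11505, a gene on the opposite strand inside Mpo, had 50 counts over all libraries. The kit was stranded, but the strand setting of the counting is not given. Whether reads of overlapping genes on opposite strands were kept apart is therefore not known.

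Prtn3 and Elane, the adjacent protease genes, had the same order of sets. Prtn3 stood at 20.6, 14.7, 20.0 and 55.4 CPM in replicate number 1 (empty vector, fusion with control shRNA, shNizp1#1 and shNizp1#2, the order used from here on). It stood at 128, 157, 80.7 and 54.4 CPM in replicate number 2 and at 0.652, 0.785, 0.278 and 2.79 CPM in replicate number 3. The shNizp1#2 library was the highest of its set in replicate number 1 and the lowest of its set in replicate number 2, and these 2 libraries were nearly level with each other. Elane stood at 11.5, 7.45, 5.23 and 22.0 CPM in replicate number 1. In replicate number 2 it stood at 41.8, 58.5, 20.7 and 17.3 CPM. Its counts in replicate number 3 were 0, 1, 2 and 2, which are all under the floor of 3 counts. Elane too was highest with shNizp1#2 in replicate number 1 and lowest with it in replicate number 2.

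Ms4a3 and Prss57 varied the same way over a smaller range. Ms4a3 stood at 9.53, 11.2, 12.8 and 17.0 CPM in replicate number 1 and at 39.1, 42.3, 20.9 and 10.4 CPM in replicate number 2. Its levels in replicate number 3 were 3.91, 3.92, 4.31 and 3.67 CPM, from 18 to 31 counts. Ms4a3 was therefore detected above the floor in every library, and the 4 libraries of replicate number 3 lay closer together than those of either other number. Prss57 had the lowest mean of the 6 genes in each replicate number, also per kilobase of exon. It stood at 0.882, 1.09, 1.43 and 3.42 CPM in replicate number 1 and at 4.98, 3.73, 2.51 and 1.24 CPM in replicate number 2. It had 1, 0, 1 and 2 counts in replicate number 3, which are under the floor. There it was not the lowest in every library, since Elane had 0 counts with the empty vector and Mpo 0 counts with shNizp1#1, where Prss57 had 1. Prss57 overlaps the opposite-strand gene Fstl3, which had 123 counts over all libraries and means of 2.36, 1.99 and 1.60 CPM in replicate numbers 1, 2 and 3.

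Ctsg did not follow the other genes. It stood at 149, 233, 273 and 193 CPM in replicate number 1, at 295, 235, 167 and 134 CPM in replicate number 2 and at 461, 710, 982 and 674 CPM in replicate number 3. All 4 libraries of replicate number 3 lay above all 8 others, while replicate numbers 1 and 2 overlapped. The shNizp1#1 library of replicate number 3, which had no Mpo count, had 7070 Ctsg counts, the highest of the 12 libraries.

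**Figure D1:**
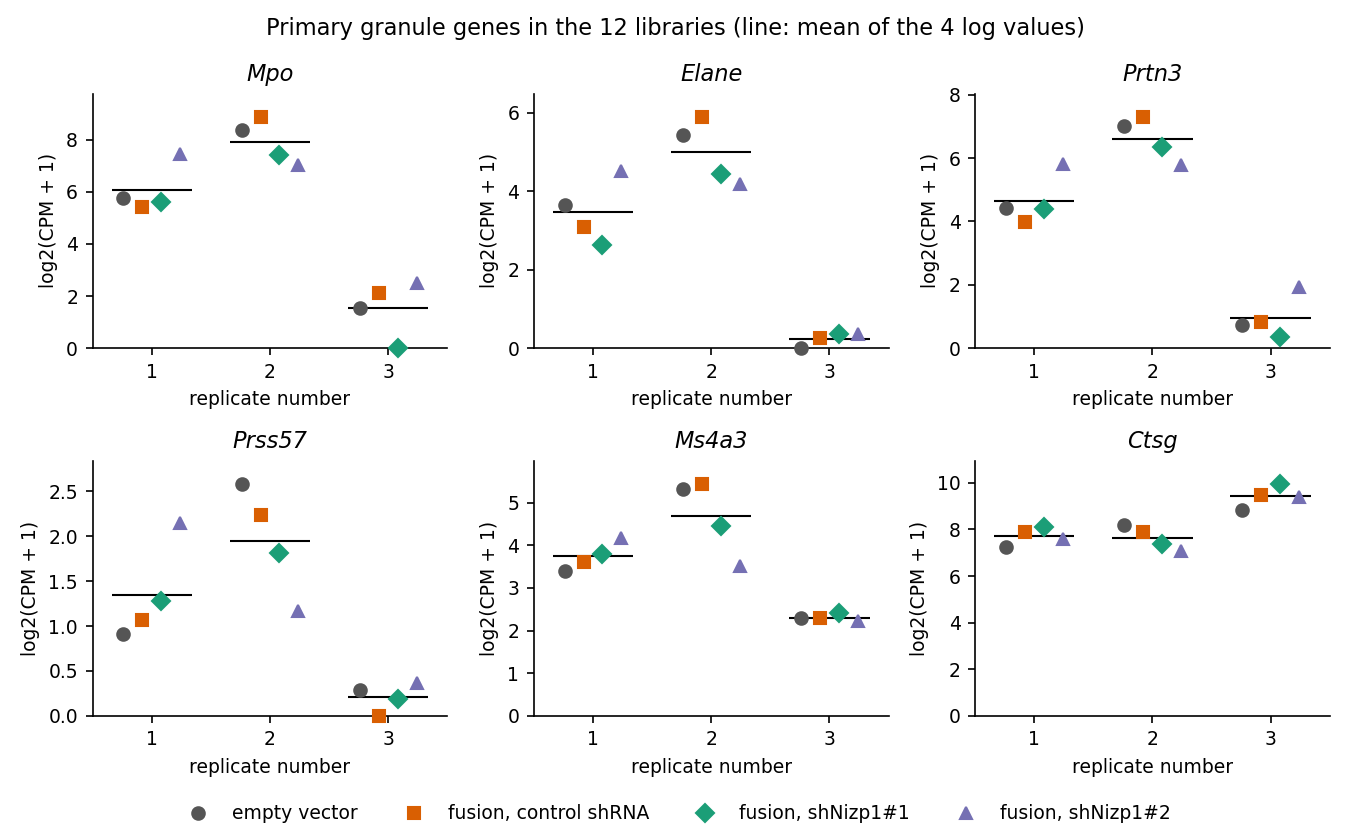
Level of each gene as log2(CPM + 1) in each of the 12 libraries, by replicate number, with symbols for the 4 groups and a line at the mean of the 4 log values. Mpo, Elane, Prtn3, Prss57 and Ms4a3 were lowest in the libraries of replicate number 3, where Ctsg was highest, at 461 to 982 CPM.

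Replicate number 3 differed from numbers 1 and 2 in all 6 genes. In an edgeR quasi-likelihood model with group and replicate number, 1 of the 6 was called higher and 5 were called lower at an adjusted p under 0.05, against 20.8% of all tested genes called higher and 23.2% called lower. The 6 genes had a median of -4.55 on the log2 scale, and all tested genes one of 0.01. Elane fell by 6.37 (SE 0.83, adjusted p = 7.23e-04), from means of 11.5 ± 7.45 and 34.6 ± 19.3 CPM in replicate numbers 1 and 2 (SD, n = 4 each) to 0.192 ± 0.135 CPM, which rests on 5 counts. Mpo fell by 5.94 (SE 0.90, adjusted p = 0.0027), from 79.5 ± 63.7 and 275 ± 157 CPM to 2.5 ± 2.01 CPM. Prtn3 fell by 5.51 (SE 0.81, adjusted p = 0.00219), from 27.7 ± 18.7 and 105 ± 46.2 CPM to 1.13 ± 1.13 CPM. These differences correspond to fitted folds of 82.8 for Elane, 61.2 for Mpo and 45.7 for Prtn3.

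Prss57 fell by 3.59 (SE 0.74, adjusted p = 0.00169), from 1.71 ± 1.17 and 3.11 ± 1.60 CPM to 0.162 ± 0.125 CPM, which rests on 4 counts. Ms4a3 fell by 2.21 (SE 0.42, adjusted p = 0.00347), from 12.6 ± 3.19 and 28.2 ± 15.1 CPM to 3.95 ± 0.263 CPM. Ctsg rose by 1.74 (SE 0.26, adjusted p = 0.00216), from 212 ± 53.1 and 208 ± 72.1 CPM to 707 ± 214 CPM, a 3.34-fold difference. With limma-voom in place of edgeR, Mpo (adjusted p = 0.0793) and Prtn3 (adjusted p = 0.0511) missed the threshold at log2 fold changes of -5.88 and -5.50. In bulk RNA, fewer cells of a type and less RNA per cell cannot be told apart. The p-values set the difference between replicate numbers against the spread left between libraries, which may be technical. The libraries of a number come from different groups and varied together, so they are not independent replicates of that number. The p-values and SDs therefore do not tell how far another set of libraries would differ.

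Replicate numbers 1 and 2 differed less. Prtn3 was the 1 gene of 6 called higher in number 2 than in number 1 and none was called lower, against 13.4% and 12.6% of all tested genes. Its log2 fold change was 1.99 (SE 0.57, adjusted p = 0.0462 in edgeR), and it missed the threshold when any 1 of 10 libraries was left out. Mpo (1.90, SE 0.68, adjusted p = 0.0874), Elane (1.54, SE 0.49, adjusted p = 0.0552) and Ms4a3 (1.03, SE 0.41, adjusted p = 0.0983) did not pass, nor did Prss57 (0.81, SE 0.55, adjusted p = 0.298). Ctsg stood at -0.00 on the log2 scale (SE 0.32, adjusted p = 0.997). Without the shNizp1#2 library of replicate number 2, the 5 genes other than Ctsg all passed, with Mpo at 2.66 (adjusted p = 0.00956). Without the shNizp1#2 library of replicate number 1, Mpo, Elane, Prtn3 and Ms4a3 passed.

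**Figure D2:**
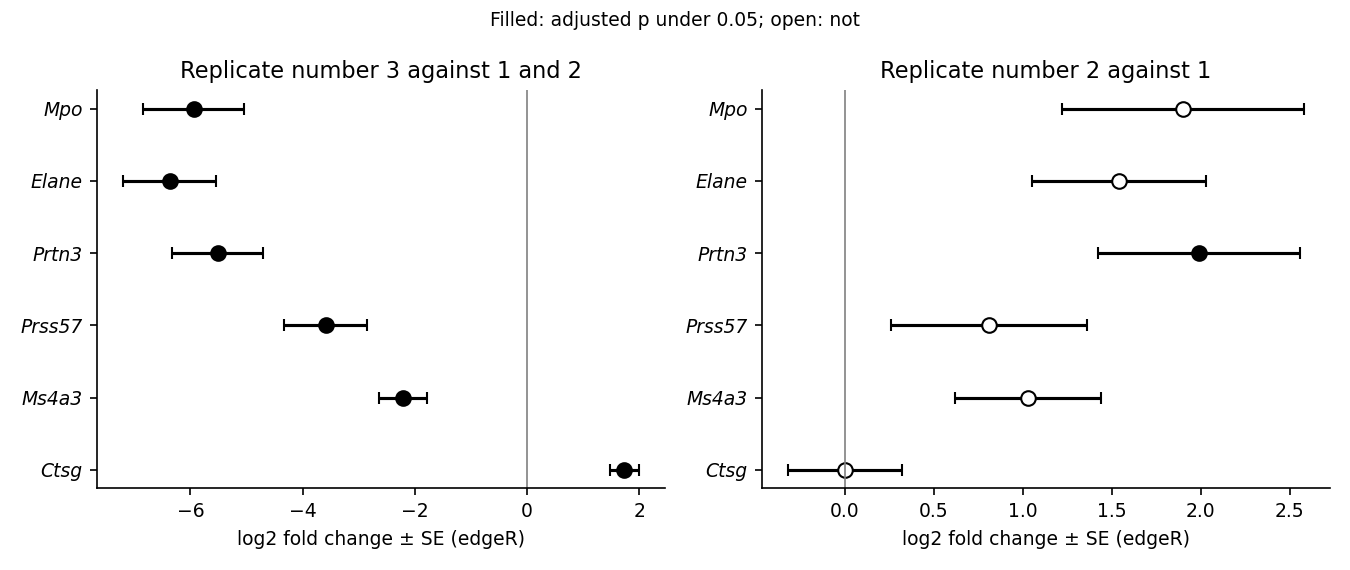
Log2 fold change of each gene with its standard error, for replicate number 3 against 1 and 2 (left) and number 2 against 1 (right). Filled points had an adjusted p under 0.05 in edgeR. On the left 5 genes lie at or under -2.21 and Ctsg at 1.74, and on the right Prtn3 alone is filled.

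Ctsg and the other 5 genes therefore changed places between sets of libraries. Over the 6 genes, Ctsg held 41.4% to 75.7% of the summed CPM in replicate number 1, 24.3% to 38.5% in replicate number 2 and 98.3% to 99.5% in replicate number 3. The other 5 genes summed to 75.8 to 273 CPM, 213 to 731 CPM and 5 to 11.7 CPM in the same sets. The sum over all 6 genes overlapped between the sets, at 245 to 465, 347 to 966 and 468 to 987 CPM. A total over the family thus hid the opposite differences of its members.

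**Figure D3:**
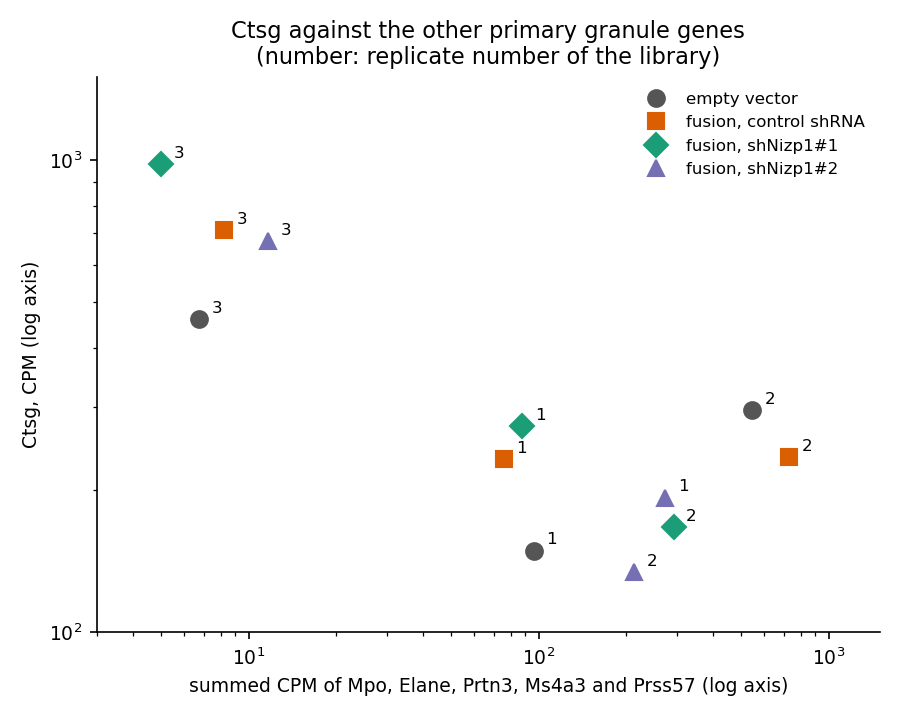
Ctsg in CPM against the summed CPM of the other 5 genes in the 12 libraries, both on log axes, with the replicate number beside each symbol. The libraries of replicate number 3 stand apart at the upper left, at 5 to 11.7 CPM on the horizontal axis, and those of numbers 1 and 2 lie at the lower right.

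Levels were compared between genes per kilobase of exon, with the exon lengths of the count table. In replicate number 1 the order of mean levels was Ctsg (212 CPM per kb, range 149 to 272), Mpo (27.4, 14.3 to 60.1), Prtn3 (27.0, 14.3 to 54.1), Ms4a3 (12.5, 9.41 to 16.7), Elane (11.7, 5.32 to 22.4) and Prss57 (0.601, 0.310 to 1.20). Ctsg lay above the next gene in every library, and Prss57 lay under the range of the other 5, while the ranges of Mpo and Prtn3 overlapped, as did those of Ms4a3 and Elane. In replicate number 2 the order was Ctsg (207 CPM per kb), Prtn3 (102), Mpo (94.6), Elane (35.1), Ms4a3 (27.8) and Prss57 (1.09), and the highest Mpo value of 162 CPM per kb lay above the lowest Ctsg value of 133. The order in replicate number 3 was Ctsg (705 CPM per kb), Ms4a3 (3.90), Prtn3 (1.10), Mpo (0.860), Elane (0.195) and Prss57 (0.0571). Ms4a3, which ranked behind Mpo and Prtn3 in the other 8 libraries, came next after Ctsg in all 4 libraries of replicate number 3, and Ctsg ranked first in all 12.

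Within replicate numbers 1 and 2, the ratios of Mpo and Elane to Prtn3 spanned less than the levels of these genes did. Mpo per kb was 0.853 to 1.11 times Prtn3 in replicate number 1 and 0.730 to 1.05 times in replicate number 2. Elane was 0.273 to 0.579 times and 0.267 to 0.388 times Prtn3, in the same order. Ms4a3 was 0.310 to 0.770 times Prtn3 in replicate number 1, a wider span than that of its own level (9.41 to 16.7 CPM per kb), and 0.193 to 0.309 times in replicate number 2. Ctsg per kb was 1.45 to 16.4 times Mpo in these 8 libraries and 416 to 683 times Mpo in the 3 libraries of replicate number 3 that had Mpo counts. Across the 12 libraries, on the log2(CPM + 1) scale, Pearson's r between Mpo, Elane, Prtn3, Ms4a3 and Prss57 ran from 0.92 to 0.99, and that of Ctsg with each of them from -0.83 to -0.63. These values describe libraries that fall into sets by replicate number and are given without a test.

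Of the variation of each gene over the 12 libraries, on the same scale, replicate number held 93.4% for Prtn3, 92.1% for Elane, 91.0% for Mpo, 82.0% for Ctsg, 80.6% for Ms4a3 and 74.8% for Prss57. The group held between 0.769% (Prss57) and 4.59% (Ctsg). Over all tested genes the medians were 48.7% for replicate number and 20.6% for group.

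None of the 6 genes was called between groups among the genes that passed the filter on low counts. The fusion was compared with the empty vector to ask what NUP98-NSD1 changes. Mpo averaged 129 ± 178 CPM with the empty vector and 171 ± 259 CPM with the fusion (SD, n = 3), and Ctsg 302 ± 156 and 393 ± 275 CPM. The SD exceeded the mean for Mpo, Elane, Prtn3, Ms4a3 and Prss57 in both groups. None of 6 genes was called in edgeR without the replicate number in the model, against 0.00834% of tested genes, and none with it, against 0.275%. The smallest unadjusted p was 0.656 without and 0.541 with the replicate number, both for Ctsg, so that 0 of 6 had an unadjusted p under 0.05. The log2 fold changes with the replicate number in the model were 0.30 for Mpo (SE 0.83), 0.19 for Elane (SE 0.62), 0.11 for Prtn3 (SE 0.72), 0.24 for Ctsg (SE 0.37), 0.14 for Ms4a3 (SE 0.49) and -0.26 for Prss57 (SE 0.72). The median of the 6 was 0.17, against a median of -0.00 over all tested genes, and it was 0.27 without the replicate number.

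To ask what loss of Nizp1 changes, fusion cells with each shRNA were compared with fusion cells that carried the control shRNA. Both comparisons share the 3 control libraries. Zkscan17 itself fell by 0.93 on the log2 scale with shNizp1#1 (SE 0.12, adjusted p = 0.00198) and by 1.25 with shNizp1#2 (SE 0.12, adjusted p = 2.90e-04) with the replicate number in the edgeR model, and its adjusted p was 0.49 and 0.228 without it. With shNizp1#1, none of 6 members was called, against 0% of tested genes without and 1.63% with the replicate number in the model. Mpo averaged 71.7 ± 85.9 CPM with shNizp1#1, Elane 8.72 ± 10.6 CPM and Ctsg 474 ± 443 CPM (SD, n = 3). In the model with the replicate number, log2 fold changes were -1.02 for Mpo (SE 0.86), -1.16 for Elane (SE 0.68, the smallest unadjusted p of the 6 at 0.129), -0.56 for Prtn3 (SE 0.74), -0.38 for Ms4a3 (SE 0.50) and -0.17 for Prss57 (SE 0.77). Ctsg stood at 0.12 (SE 0.37) in that model. Of the 6 genes, 5 lay under 0, with a median of -0.47, and -0.71 without the replicate number. With the replicate number in the edgeR model and no filter on low counts, 290 of 23682 genes were called lower. Mpo (adjusted p = 3.19e-10 in edgeR) and Elane (adjusted p = 6.57e-04) were among them. Their log2 fold changes there, -1.02 and -1.17, were nearly those of the filtered fit, where the unadjusted edgeR p was 0.278 and 0.129. The pairs did not agree for Mpo, at 1.17 times the control in replicate number 1 and 0.356 times in number 2.

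With shNizp1#2, none of 6 members was called, against 0.00834% of tested genes without and 0.217% with the replicate number. Mpo averaged 103 ± 88.1 CPM, Elane 13.2 ± 11.4 CPM and Ctsg 333 ± 296 CPM (SD, n = 3). In the model with the replicate number, log2 fold changes were 0.27 for Mpo (SE 0.88), -0.17 for Elane (SE 0.66), 0.27 for Prtn3 (SE 0.75), -0.36 for Ctsg (SE 0.36), -0.56 for Ms4a3 (SE 0.50) and 0.27 for Prss57 (SE 0.71). Without the replicate number, Mpo stood at -0.74 (SE 2.02) and Prtn3 at -0.62 (SE 1.88), so that the sign of both turned with the model. Between the shRNAs none of 6 genes was called, against 0.00834% of tested genes without and 2.37% with the replicate number. With shNizp1#2 against shNizp1#1, the log2 fold change of Mpo was 1.29 (SE 0.87) with and 0.54 (SE 2.03) without the replicate number in the model. That of Ctsg was -0.48 (SE 0.36) with and -0.51 (SE 0.83) without it. With the replicate number in the edgeR model and no filter on low counts, 626 of 23682 genes were called between the shRNAs. Among them were Mpo (1.30, adjusted p = 1.46e-14 in edgeR), Elane (0.99, adjusted p = 0.0236) and Ctsg (-0.48, adjusted p = 9.18e-04). These fold changes were nearly those of the filtered fit, where the unadjusted edgeR p was 0.189, 0.199 and 0.231. In the pair of replicate number 2, Mpo and Elane were lower with shNizp1#2, at 0.778 and 0.838 times, against 3.62 and 4.21 times in number 1. Standard errors of the size found with the filter leave differences of several fold in either direction undetectable here for Mpo, Elane and Prtn3.

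The uncalled means hid differences between the 2 libraries of a pair that went opposite ways in replicate numbers 1 and 2. With shNizp1#2 in replicate number 1, the 5 genes other than Ctsg were all higher than with the control shRNA: Mpo had 4.22 times the control level (95% exact binomial interval 3.61 to 4.95), Prtn3 3.78 times, Prss57 3.13 times, Elane 2.96 times and Ms4a3 1.52 times. In replicate number 2 all 5 were lower: Mpo had 0.277 times the control level (0.256 to 0.299), Prtn3 0.346, Prss57 0.332, Elane 0.296 and Ms4a3 0.245 times. All 10 of these intervals excluded 1. In replicate number 3, Prtn3 was at 3.55 times (1.18 to 14.4, from 19 and 4 counts), and the intervals of Mpo (0.759 to 2.70) and Ms4a3 (0.498 to 1.77) held 1. Ctsg, in contrast, was lower with shNizp1#2 in all 3 pairs, at 0.826 (0.760 to 0.898), 0.568 (0.520 to 0.620) and 0.949 (0.908 to 0.992) times the control. The intervals here and in the pairs described next cover counting error only. Libraries of 1 group, which had different replicate numbers, differed by more than that over the tested genes, with a chi-square per degree of freedom of 14.4 to 59. These values hold the difference between replicate numbers, and the spread beyond counting error within a number was not measured. The share of all tested genes with intervals that exclude 1 was not computed, so the counts of such intervals have no background. With 1 library for each group and number, the difference between replicate numbers was not tested.

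With shNizp1#1 the pair of replicate number 2 stood out. All 6 genes were lower than with the control shRNA there: Mpo had 0.356 times the control level (0.325 to 0.389), Elane 0.353, Ms4a3 0.495, Prtn3 0.513, Prss57 0.674 and Ctsg 0.710 times, and the interval of Prss57 alone held 1. In replicate number 1, the interval excluded 1 for Ctsg alone, at 1.17 times the control level. In replicate number 3, Mpo went from 17 counts to 0 (at most 0.171 times at the upper end of the interval), and Ctsg was at 1.38 times (1.33 to 1.44). Between the shRNAs, Ctsg was lower with shNizp1#2 than with shNizp1#1 in all 3 pairs, at 0.706, 0.800 and 0.686 times, each with an interval that excluded 1.

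With the fusion, Mpo, Elane and Prtn3 were lower than with the empty vector in replicate number 1, at 0.774 (0.642 to 0.931), 0.649 (0.416 to 0.997) and 0.711 (0.518 to 0.968) times. They were higher in replicate number 2, at 1.41 (1.32 to 1.51), 1.40 (1.16 to 1.70) and 1.23 (1.10 to 1.37) times. Ctsg went the other way in these sets, at 1.56 times (1.43 to 1.71) in replicate number 1 and 0.797 times (0.735 to 0.863) in replicate number 2. In replicate number 3 Ctsg was higher with the fusion, at 1.54 times (1.46 to 1.63), while Mpo at 1.71 times (0.720 to 4.35) and Prtn3 at 1.20 times (0.204 to 8.23) had intervals that held 1, and Elane had 1 count against 0. Ms4a3 and Prss57 had intervals that held 1 in all 3 pairs.

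**Figure D4:**
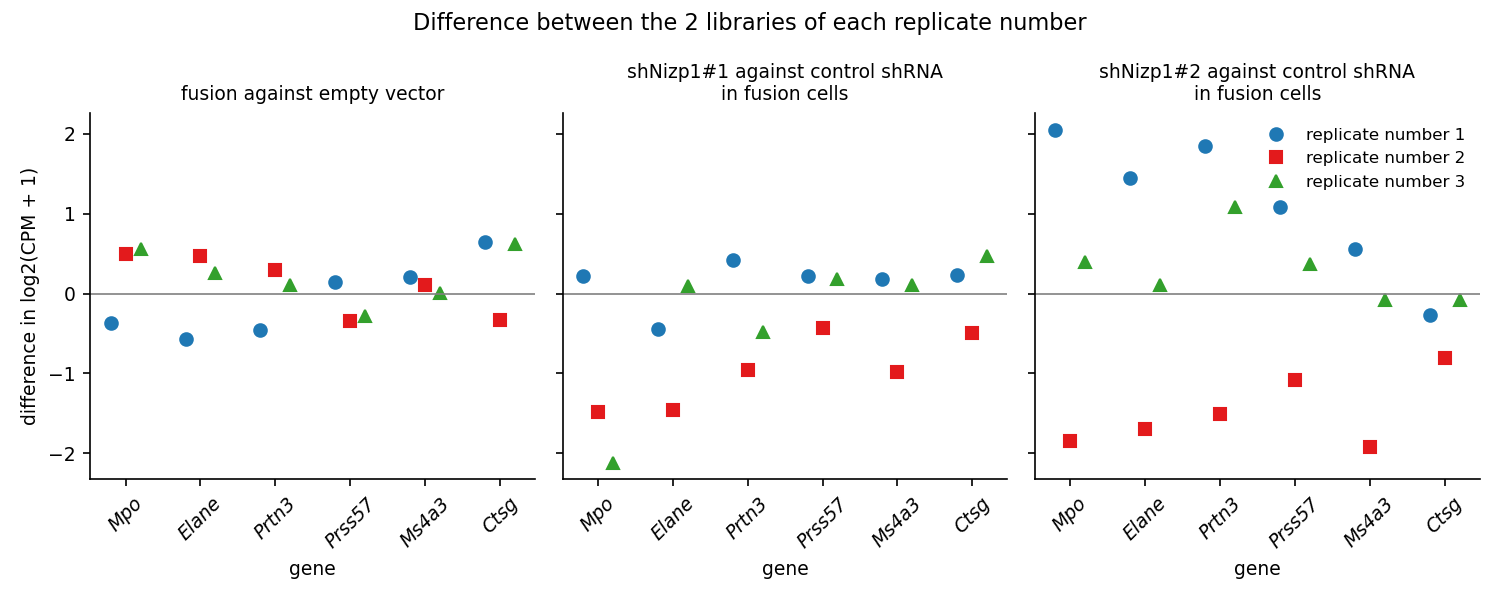
Difference in log2(CPM + 1) between the 2 libraries of each replicate number, for the fusion and for the shRNAs, each against its control. With shNizp1#2 the points of replicate number 1 lie above 0 and those of number 2 under 0 for the 5 genes other than Ctsg, whose ratios were 0.826, 0.568 and 0.949.

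Genes beside the members on the chromosome did not share 1 direction. Between replicate number 3 and numbers 1 and 2, Plppr3, which lies 4980 bases from Prtn3, fell by 3.91 (adjusted p = 9.17e-04 in edgeR), while log2 fold changes were 0.12 (adjusted p = 0.215) for Ptbp1, an RNA-binding protein gene 14843 bases from Prtn3, and 0.18 (adjusted p = 0.119) for Med16, a Mediator subunit gene 6493 bases from Elane. Beside Mpo, Epx, the eosinophil peroxidase gene 59587 bases away, fell by 5.95 (adjusted p = 3.36e-06), and Tspoap1, the nearest expressed gene at 7653 bases, rose by 0.55 (adjusted p = 0.0231). Beside Ms4a3, Ms4a2, which encodes the beta chain of the high-affinity IgE receptor of mast cells and basophils and lies 5777 bases away, stood at 2470, 1830 and 2200 CPM in replicate numbers 1, 2 and 3 (0.05, adjusted p = 0.665). Ms4a6d, 24647 bases away, fell by 3.41 (adjusted p = 3.70e-04).

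Ctsg lies in the cluster of mast cell protease genes. Mcpt2, 55239 bases from Ctsg, rose by 1.89 in replicate number 3 (adjusted p = 8.30e-05), from 37.4 and 21.2 to 103 CPM. Mcpt1, 79497 bases away, rose by 3.20 (adjusted p = 1.64e-06), from 2.30 and 0.931 to 13.6 CPM. Mcpt4, 37568 bases away, stood at 798, 874 and 1240 CPM (0.56, adjusted p = 0.0716). Mcpt8, a basophil protease gene and the nearest expressed neighbour of Ctsg at 14684 bases, stood at 55.8, 227 and 70.1 CPM (-0.83, adjusted p = 0.0921). Reads of these similar genes may have been split or dropped in the counting.

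The mast cell list as a whole was not higher where Ctsg was. The counts of this and the next lists in replicate number 3 stand against 20.8% of all tested genes called higher and 23.2% called lower. Of 14 genes, 2 (Mcpt1 and Mcpt2) were called higher and 8 lower in replicate number 3, the median was -0.27, and the list summed to 57100 to 70800, 52500 to 66700 and 44800 to 51300 CPM in replicate numbers 1, 2 and 3. Hdc, which makes histamine, fell by 2.26 (adjusted p = 7.27e-09 in edgeR), and the tryptase genes Tpsab1 and Tpsb2 fell by 2.17 and 1.92 (adjusted p = 0.0149 and 0.00125). No mast cell gene was at 0 in any set of libraries. Of 3 basophil genes, 2 were called lower, with Prss34, a basophil protease gene, at -3.41 (adjusted p = 0.00328). The part of the mast cells and basophils in the Ctsg level was not tested.

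Genes of the later granules were lower as well. Of 18 secondary and tertiary granule genes, 16 were called lower in replicate number 3 and 1 higher. Their median was -7.72 on the log2 scale, and -6.82 with the 6 genes that had no count in replicate number 3 set to their bound. The bound takes 3 counts over the 4 libraries. Ltf (lactoferrin) was at least 735-fold lower, Hp (haptoglobin) at least 300-fold and Camp (cathelicidin) at least 161-fold. S100a8, a calcium-binding protein of neutrophils, fell by 9.71 (adjusted p = 4.30e-12), from 69.5 and 252 CPM to 3 counts. In replicate number 2 against number 1, 13 of the 18 were called higher and 1 lower (13.4% and 12.6% of all tested genes), with Ltf at 38.1 and 148 CPM. With shNizp1#1 and the replicate number in the model, 7 of these 18 genes were called lower and 1 higher (1.63% of all tested genes were called), among them S100a8 at -1.31 (adjusted p = 0.00162) and Camp at -1.72 (adjusted p = 0.0114). With shNizp1#2 in the same model, none of the 18 was called lower and 1 was called higher (0.217% of all tested genes were called). Without the replicate number none of the 18 was called with either shRNA. None of the 6 members was called in these models.

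Genes that accompany the members in granulocyte-monocyte progenitors were lower too. Of 8 tested genes of that list, 7 were called lower in replicate number 3 and none higher, with a median of -3.61. Fcnb (ficolin B) fell by 6.65 (adjusted p = 1.47e-06) and Clec5a by 4.86 (adjusted p = 3.16e-07). Igsf6 fell by 3.96 (adjusted p = 8.29e-05). In replicate number 2 against number 1, 6 of the 8 were called higher, against 13.4% of all tested genes. Of 12 tested monocyte and macrophage genes, 11 were called lower in replicate number 3, and of 7 tested eosinophil genes 5 lower and 1 higher. The monocyte list summed to 544 to 606, 791 to 1310 and 279 to 359 CPM in replicate numbers 1, 2 and 3. The share of these cell types in the differences of the members was not tested.

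Of the transcription factors and receptors of granulopoiesis, 9 of 14 tested genes were called lower in replicate number 3 and none higher, with a median of -0.89. Cebpe, needed for the later granules, fell by 5.72 (adjusted p = 8.69e-06), from 1.89 and 7.33 CPM to 1 count. Csf3r, the G-CSF receptor gene, fell by 4.44 (adjusted p = 8.81e-05), Irf8, a monocyte-branch factor, by 2.94 (adjusted p = 8.07e-04) and Cebpa, which starts the granulocyte-monocyte branch, by 2.39 (adjusted p = 0.0218). The next regulators were named after their values were seen. Log2 fold changes were -0.18 for Gfi1 (adjusted p = 0.412), -0.16 for Runx1 (adjusted p = 0.15), 0.07 for Cbfb (adjusted p = 0.527) and 0.17 for Myb (adjusted p = 0.196), and none of these was called. Spi1, which encodes PU.1, stood at 108, 131 and 101 CPM in replicate numbers 1, 2 and 3 and fell by 0.23 (adjusted p = 0.0464).

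Genes that mature, pack or inhibit the granule proteases had a median near 0. Of these 12 genes, 3 were called higher and 4 lower in replicate number 3, shares close to the 20.8% and 23.2% of all tested genes, with a median of -0.06. Ctsc, the dipeptidase that activates elastase, proteinase 3 and cathepsin G and which was named after its value was seen, averaged 807 ± 138, 648 ± 114 and 543 ± 140 CPM (SD, n = 4) and fell by 0.43 (adjusted p = 0.00322). Slpi, which encodes an inhibitor of elastase and cathepsin G, fell by 2.55 (adjusted p = 1.19e-04), from 3.59 and 9.09 CPM to 0.923 CPM. Lyst, which limits granule size, fell by 1.23 (adjusted p = 1.07e-04), and Jagn1, an endoplasmic reticulum protein gene needed in neutrophils, rose by 0.69 (adjusted p = 1.75e-04). Of 12 tested genes for other azurophil and lysosomal contents, 1 was called higher and 5 lower, against the same shares, with a median of -0.18. Ctsb and Ctsd, which encode lysosomal cathepsins, fell by 1.11 (adjusted p = 0.0267) and 0.43 (adjusted p = 2.75e-04).

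Of 11 stem and progenitor genes, 6 were called higher in replicate number 3 and 3 lower (20.8% and 23.2% of all tested genes), with a median of 0.38. Mecom, a stem cell transcription factor gene, rose by 1.25 (adjusted p = 7.03e-04), from 36.3 and 14.3 CPM to 54.0 CPM, and Flt3, a receptor of early progenitors, fell by 3.96 (adjusted p = 0.00382), to 2 counts over the 4 libraries.

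**Figure D5:**
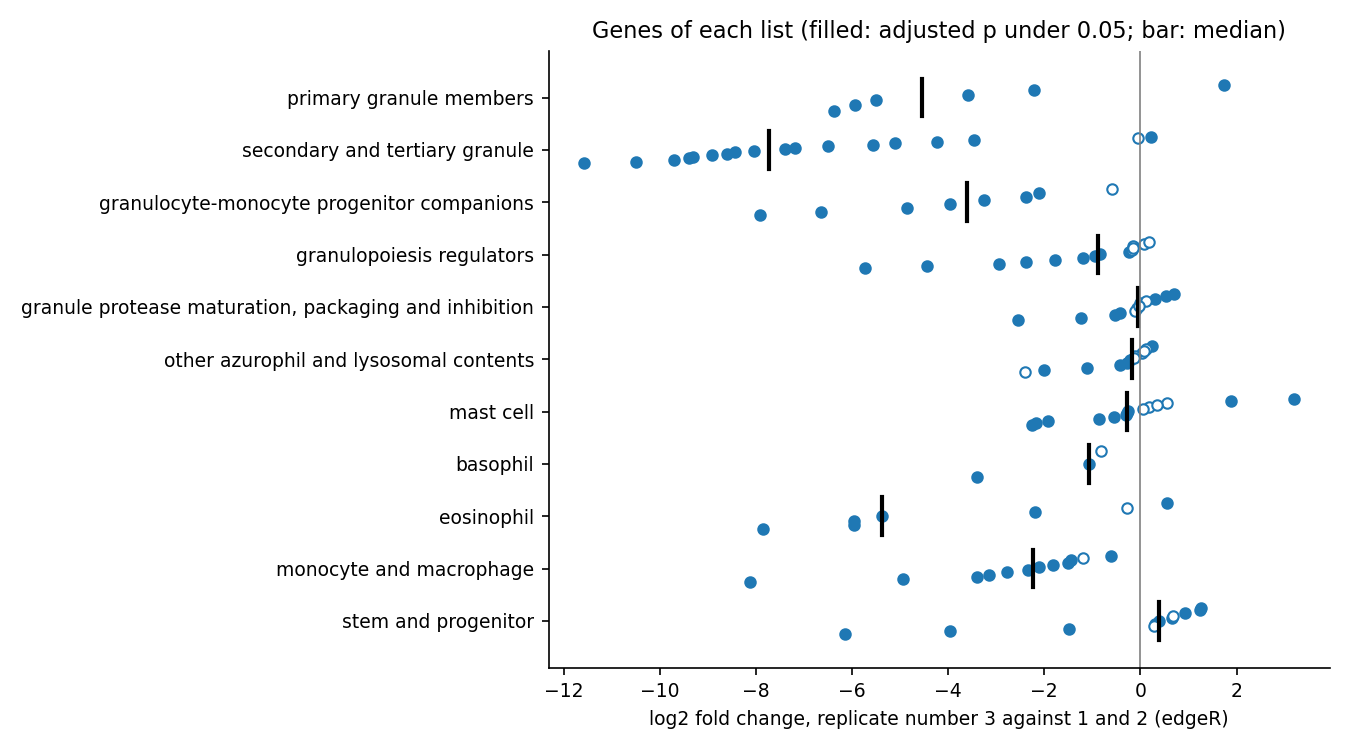
Log2 fold change of each tested gene of 11 lists, replicate number 3 against 1 and 2, with a bar at the list's median and filled points for an adjusted p under 0.05 in edgeR. The medians were -4.55 for the members, -7.72 for the secondary and tertiary granule genes and -0.06 for the genes that mature, pack or inhibit the proteases, and fitted values of genes with no count in replicate number 3 depend on the model's prior.

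The genes most like the members were found by Pearson's r with the mean log2(CPM + 1) of the 6, over the 12 libraries and 10014 candidate genes. The closest was Snw1, a splicing and transcription cofactor gene, with r = 0.981 over a narrow range of 112 to 140 CPM in the means by replicate number. Fcnb followed with r = 0.969, then Ifi27l2a (0.965), Irf7 (0.965), Rtp4 (0.961), Siglec1 (0.956), Slfn4 (0.955), Plppr3 (0.953), Mcemp1 (0.952) and Rgs2 (0.951). Irf7, Rtp4 and Ifi27l2a are known as interferon-induced genes, and Irf7 stood at 62.6, 280 and 4.34 CPM in replicate numbers 1, 2 and 3. With the means of group and replicate number removed, the 5 closest were Hnrnpa1 (0.975), Xrcc1 (0.972), Hspa8 (0.971), Lipg (0.970) and Tomm40l (0.969), none of which was among the first 10. The points share libraries, depth and scaling, and r is a description with no test.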

How the data were processed

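The 12 libraries, 3 in each of 4 groups, were prepared from 1 µg RNA each with a stranded mRNA kit and sequenced as 75 nt single reads, per the labels' protocols. The submitters' processing notes name Trimmomatic 0.32, STAR 2.5.3a, featureCounts and the mm10 build. The table deposited by the authors gives each gene's read counts as whole numbers. The strand setting, annotation release and featureCounts version were not given in the sources used.

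Counts were tested with the quasi-likelihood test of edgeR 4.0.16 (R 4.3.3, robust, TMM scaling, low-count filter on group, 11994 genes), with Benjamini-Hochberg adjustment over all tested genes and a threshold of 0.05. Comparisons between groups used 1 mean per group without the replicate number, and those between replicate numbers a model with group and replicate number. The labels' replicate numbers paired the libraries. After group means were removed, all 18 pairs with the same number correlated, at 0.22 to 0.88 (median 0.74). Pairs with different numbers ran from -0.81 to 0.22 (median -0.20), and removal of the group means in itself makes their values lower. Libraries with the same number thus varied together. Fits with the replicate block are therefore given beside the others. SEs were derived from the F statistic. Ratios within a pair of libraries carry 95% exact binomial intervals. Reads have no molecular identifiers, so intervals and floors cover counting error only. No replicates were duplicates within sampling noise.

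The members and the 16 other gene lists were chosen with earlier results of these data known. The genes named were the members, Zkscan17, up to 4 called genes of a list with the largest changes (2 by level where none was called), the 10 genes most like the members, 5 more after removal of group and replicate means, and genes of at least 5 CPM within 100 kb of a member. A gene that met this rule is not named in the results. Alternatives were RLE and upper-quartile scaling, no filter, DESeq2 1.42.0, limma-voom (limma 3.58.1), the 2 groups alone, the replicate block, libraries left out in turn and the fit without replicate number 3. Leaving out each group, and replicate number 3 against 1 or 2 alone, were added after seeing the data. The scripts were tested on simulated data. Promoter sequences are RefSeq's.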

Additional observations from a re-analysis of the deposited data

How the results depend on the processing

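In replicate number 3 against 1 and 2, 6 of 6 genes kept their call in every setting run, except that limma-voom called 4. The settings include each library or group left out. Over all 11994 tested genes, 5279 were called in the main model and 5446 with limma-voom. Against number 1 alone 3138 were called, and against number 2 alone 5949. In number 2 against 1, 1 member was called in the main model and 2 with RLE or upper-quartile scaling. No filter gave 4, DESeq2 3 and limma-voom 0. With 1 library left out, 0 to 5 were called (4 without shNizp1#2 replicate 1 and 5 without shNizp1#2 replicate 2). Over all tested genes, 3112 of 11994 were called in the main model, 3040 with RLE and 3079 with upper-quartile scaling. No filter gave 3458 of 23682, DESeq2 2515 and limma-voom 3271. The calls over all genes with 1 library left out are not given. The log2 fold change of Ctsg in number 2 against 1 was 0.03 with RLE scaling, 0.01 with upper-quartile scaling and 0.03 with DESeq2. It ran from -0.37 to 0.22 with 1 library left out. The cause of these changes was not tested.

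No member was called between groups in any fit without the replicate block. With the replicate block and no filter on low counts, 512 of 23682 genes were called with shNizp1#1 and 626 between the shRNAs. Of the 6 members, 2 were called with shNizp1#1 (Mpo and Elane) and 3 between the shRNAs (Mpo, Elane and Ctsg). The fold changes of these members were nearly the same as with the filter. Between the shRNAs the count was 0 to 2 when 1 library was left out, with Elane and Prtn3 called in the blocked fit without shNizp1#2 replicate 2. The replicate block changed no other call of a member. Over all tested genes it raised the calls from 1 to 33 with the fusion, from 0 to 195 with shNizp1#1, from 1 to 26 with shNizp1#2 and from 1 to 284 between the shRNAs, while DESeq2 without the block called 8, 39, 7 and 77.

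Signs of uncalled values turned often. With shNizp1#2 the main values of Mpo and Prtn3 were negative. Mpo stood at 0.17 with limma-voom, 0.27 with the replicate block, and with the block at 0.26 under RLE, 0.26 under upper-quartile scaling, 0.27 with no filter, 0.42 with DESeq2 and 0.22 without the libraries of replicate number 3. Prtn3 stood at 0.61, 0.27, 0.27, 0.26, 0.28, 0.94 and 0.12 under the same settings. With DESeq2 and the block, Elane stood at 0.13 with shNizp1#2 and Prss57 at 0.01 with shNizp1#1. With limma-voom and the block, Prss57 stood at -0.20 with shNizp1#2 and -0.13 between the shRNAs. With the block and without replicate number 3, Ctsg stood at -0.10 with shNizp1#1.

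With 1 library left out, blocked or not, log2 fold changes with the fusion ran from -2.54 to 2.63 for Mpo, -2.22 to 1.94 for Elane, -2.69 to 2.43 for Prtn3, -0.37 to 0.82 for Ctsg, -1.21 to 1.51 for Ms4a3 and -1.85 to 1.49 for Prss57. With shNizp1#1 they ran from -2.87 to 1.67, -3.11 to 1.16, -2.58 to 2.11, -0.84 to 1.02, -1.18 to 0.73 and -1.16 to 1.22 for the same genes in that order. With shNizp1#2 they ran from -1.34 to 2.21, -1.42 to 1.80, -1.20 to 2.29, -1.27 to 0.51, -1.44 to 0.45 and -1.05 to 1.60. Between the shRNAs they ran from -0.18 to 2.31, -0.31 to 2.36, -0.42 to 1.97, -1.54 to 0.60, -0.93 to 0.48 and -0.91 to 1.65. At 0 to 2 counts per library, Elane and Prss57 in replicate number 3 were at the limit of the depth, and differences between groups there were not detectable.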

Other observations

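The lists not described with the members differed by replicate number as follows. Of 6 tested dendritic cell and MHC class II genes, 4 were called lower in replicate number 3, against 23.2% of all tested genes. All 6 were called higher in number 2 than in number 1, against 13.4%. Cd74, the invariant chain gene, stood at 35.8, 180 and 7.69 CPM in replicate numbers 1, 2 and 3. Of 6 tested megakaryocyte genes, 5 were called lower in replicate number 3 (23.2% of all tested genes), among them the platelet chemokine gene Pf4 at 41.6, 55.0 and 6.86 CPM. The most abundant genes of this list differed little. Itga2b stood at 1750, 1640 and 1550 CPM (-0.14, adjusted p = 0.189 in edgeR, not called) and Gp1ba at 437, 299 and 314 CPM (-0.21, adjusted p = 0.0287). Of the erythroid, B cell and T and NK cell lists 1 gene each was tested: Ighm was called lower in replicate number 3 (log2 fold change -1.25, adjusted p = 0.00748 in edgeR), while Epor (-0.28, adjusted p = 0.346) and Ncr1 (0.03, adjusted p = 0.934) were not called.

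The genes most like Ctsg alone, a question put after its values were seen, were Ddx18 (r = 0.969 over the 12 libraries), Parvg (0.964), Cse1l (0.962), Ddx56 (0.961) and Cops7a (0.958), none of which was among the 10 genes most like the mean of the 6. Their means ran over narrower ranges than Ctsg, with Parvg at 173, 152 and 275 CPM in replicate numbers 1, 2 and 3. With Ctsg left out of the mean, Snw1 (0.983), Ifi27l2a (0.971), Irf7 (0.969) and Fcnb (0.968) came first.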
